A study of Mus musculus with 44 samples.

Results

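The insulin-like growth factor (IGF) family was followed through cultures of mouse skull bone cells as 10 genes, namely the ligands Igf1 and Igf2, the receptors Igf1r and Igf2r, and the binding proteins Igfbp2, Igfbp3, Igfbp4, Igfbp5, Igfbp6 and Igfbp7. Every probe set whose annotation named 1 of these genes and no other was taken, whatever its signal. That gave 20 of the 36701 probe sets on 3 array types, 14 on array A, 4 on B and 2 on C, for 9 of the 10 genes. The single probe set of Igfbp5 (100566_at) is also annotated to Tmem119, so its values are given separately and it is not counted. Of the 20, 17 were bright enough to be tested between sorted cells, while Igf2 98622_at, Igfbp4 101570_at and Igfbp7 160527_at were not, and 12 of the 14 on array A were tested against unsorted cells.

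The material was primary osteoblast cultures grown from the calvaria, the flat bones of the skull, of 7-day newborn mice carrying green fluorescent protein (GFP) behind a fragment of the type I collagen promoter. Each experiment gave 1 unsorted RNA sample and, after fluorescence-activated sorting, 1 GFP-positive and 1 GFP-negative sample. The day 17 groups carried pOBCol2.3GFP, were fed DMEM with 10% FCS and received ascorbic acid and beta-glycerophosphate from day 7, and came from Exp100, Exp105 and Exp106. The day 7 groups carried pOBCol3.6GFP, had the same medium with no additions, and came from Exp99, Exp101 and Exp103. There were thus 6 groups with n = 3 each, and day, transgene and additions cannot be told apart. By way of background, pOBCol3.6 drives expression from early in the osteoblast lineage, whereas pOBCol2.3 is mostly restricted to differentiated osteoblasts. Nothing in the labels says how many mice went into a culture, whether mice were pooled, or how pure the sorted fractions were. Since these are bulk samples, fewer cells that make a transcript and less of it per cell cannot be told apart.

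IGF1 and IGF2 are secreted peptides that promote the growth and survival of bone-forming cells, and bone matrix is a rich store of both. Both signal through the IGF1 receptor, a tyrosine kinase, whereas the IGF2 receptor (the cation-independent mannose 6-phosphate receptor) takes up IGF2 and carries it to lysosomes for breakdown. The binding proteins hold IGFs outside the cell and can block or prolong their action. IGFBP4 is mostly inhibitory until it is cleaved, IGFBP6 prefers IGF2, and IGFBP7 binds IGFs only weakly.

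Values are normalised intensities, the deposited array signal after quantile normalization within an array type, on a linear scale that is comparable between samples for 1 probe set but not between probe sets. Differences are on the log2 scale of the normalised intensity plus 32, given with the standard error of the fit. A probe set was called where its limma p-value, Benjamini-Hochberg adjusted over all probe sets of a comparison, was under 0.05. The sorted samples showed the bone marker Ibsp (bone sialoprotein) at 57657 to 100227 in day 17 GFP-positive cells, 11864 to 26606 in day 17 GFP-negative cells, 114 to 1903 in day 7 GFP-positive cells and 37 to 483 in day 7 GFP-negative cells. Alkaline phosphatase (Alpl) was at 6589 to 12000, 4002 to 8677, 342 to 601 and 291 to 614 in the same 4 groups, so the day 7 cells had little of either marker. Of 12 listed osteoblast and osteocyte genes, 6 had a value and 5 were tested. In day 17 GFP-positive against GFP-negative cells, 0 of 6 differed below 0 and 0 of 5 were called, where 1.48% of all probe sets were. Ibsp differed by 2.25 (adjusted p = 0.373), Alpl by 0.63 (0.634), Col1a1 by 0.06 (0.988) and Col1a2 by 0.10 (0.962). With the experiment as a block 2 were called higher, against 5.02% of all, and without Exp106 1, against 4.98%. Exp106 stood apart from the other experiments, since its sorted samples on array A correlated with theirs at a mean r of 0.84, against 0.94 within the rest. Results that rest on it are given with and without it where both were computed.

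At day 17, Igf1, Igf2, Igfbp2, Igfbp3 and Igfbp4 were each called lower in GFP-positive than in GFP-negative cells by at least 1 probe set, with log2 differences from -1.77 to -2.89. Over all 22099 probe sets tested, 1.13% were called lower there. None of the 17 probe sets was called between the fractions at day 7, where 0% of all probe sets were called. The days also differed in transgene and additions. At day 17 against day 7, Igf2, Igfbp2, Igfbp3 and Igfbp6 were called lower in GFP-positive cells, where 3.54% of all were. Igf1 was called higher in GFP-negative and in unsorted cells, where 0.272% and 3.04% of all were. The Igfbp3 and Igfbp6 calls and the Igf1 calls in GFP-negative cells were lost in most of the alternative fits given below. The receptors Igf1r and Igf2r were called in none of the 8 comparisons.

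For the 5 genes that were called lower at day 17, the 250 bases before the annotated transcription start are shown to let their upstream regions be compared. The sequences are RefSeq's on GRCm38.p6, read along the gene's strand, and capitals mark 4 short words found on either strand: the GC box GGGCGG, the CCAAT box, the TATA box TATAAA and the Runx core word TGTGGT. Igf1 is at chr10:87860861-87861110 on the plus strand, Igf2 at chr7:142657497-142657746 on the minus strand, Igfbp2 at chr1:72824230-72824479 on the plus strand, Igfbp3 at chr11:7213924-7214173 on the minus strand and Igfbp4 at chr11:99040994-99041243 on the plus strand.
Igf1: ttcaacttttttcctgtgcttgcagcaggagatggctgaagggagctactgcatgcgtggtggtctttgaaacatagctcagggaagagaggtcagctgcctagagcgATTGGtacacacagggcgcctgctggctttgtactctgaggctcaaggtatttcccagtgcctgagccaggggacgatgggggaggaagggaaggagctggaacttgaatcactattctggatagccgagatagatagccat
Igf2: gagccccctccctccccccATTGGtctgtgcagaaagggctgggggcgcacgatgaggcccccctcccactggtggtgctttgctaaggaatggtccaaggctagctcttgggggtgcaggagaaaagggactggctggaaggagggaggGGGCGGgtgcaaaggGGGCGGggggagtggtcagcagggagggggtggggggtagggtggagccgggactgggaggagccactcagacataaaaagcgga
Igfbp2: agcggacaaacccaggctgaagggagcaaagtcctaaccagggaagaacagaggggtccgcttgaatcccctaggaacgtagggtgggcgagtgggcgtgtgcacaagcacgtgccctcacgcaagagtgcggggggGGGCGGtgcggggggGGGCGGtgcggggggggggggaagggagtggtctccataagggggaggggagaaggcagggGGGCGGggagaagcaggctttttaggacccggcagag
Igfbp3: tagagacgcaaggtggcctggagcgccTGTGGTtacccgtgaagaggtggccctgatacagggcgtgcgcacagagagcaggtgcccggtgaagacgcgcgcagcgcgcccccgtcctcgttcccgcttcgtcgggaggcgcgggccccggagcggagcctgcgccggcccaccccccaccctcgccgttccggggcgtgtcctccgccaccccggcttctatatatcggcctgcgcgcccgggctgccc
Igfbp4: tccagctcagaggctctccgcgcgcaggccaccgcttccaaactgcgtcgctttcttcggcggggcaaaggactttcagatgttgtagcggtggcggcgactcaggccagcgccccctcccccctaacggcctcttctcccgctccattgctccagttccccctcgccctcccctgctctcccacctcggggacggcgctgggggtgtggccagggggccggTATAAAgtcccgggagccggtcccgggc
None of the 4 words was present in all 5 windows. Igfbp2 held 3 GC boxes and Igf2 2 GC boxes and 1 CCAAT box, written on the opposite strand as ATTGG. Igf1 held 1 CCAAT box on the opposite strand, Igfbp3 1 Runx core word, 223 to 218 bases before the start, and Igfbp4 1 TATA box, 28 to 23 bases before the start. Igf2 has 4 annotated starts and Igfbp2 2, of which 1 each is shown, the one of lowest coordinate. The windows shown held the most marked words of their gene. Of the Igf2 windows not shown, chr7:142658805-142659054 held 1 GC box, and chr7:142661272-142661521 and chr7:142666817-142667066 held none of the 4 words. The Igfbp2 window not shown, chr1:72825137-72825386, held none either. The arrays do not tell which start was used. Over all 10 genes, 14 windows were found, of which 6 held a GC box, 3 a CCAAT box, 2 a TATA box and 1 the Runx core word. Among 32851 windows of the same length, 32.7% held a GC box, 33.8% a CCAAT box, 12.4% a TATA box and 14.0% the Runx core word. The family's windows had a median GC content of 66.6%, against 52.4% over all windows. No 2 marked words overlap in the 5 windows shown, and a match is a description of letters, not of a bound factor.

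The sort at day 17 asked how cells that had switched on pOBCol2.3GFP differ from cells of the same cultures that had not. In GFP-positive cells, 6 of the 17 tested probe sets, from 5 genes, were called lower and 0 higher. Over all 22099 probe sets tested, 1.48% were called in either direction and 1.13% lower. Over all 20 family probe sets the median log2 difference was -0.45, against 0.02 over all probe sets of the arrays. With the experiment as a block, 7 were called, against 5.02% of all probe sets, and without Exp106 9, against 4.98%.

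Igf2, the ligand that dominates before birth, was measured by 98623_g_at at 9008, 8049 and 15018 in day 17 GFP-positive cells of Exp100, Exp105 and Exp106, against 52211, 41848 and 56236 in GFP-negative cells. The GFP-positive values all lay far below the GFP-negative ones, and the groups did not overlap. The difference was -2.27 ± 0.22 (SE, n = 3 each, adjusted p = 0.000652), a 4.82-fold lower signal. It was lower in each experiment, by -2.53, -2.37 and -1.90 in the same order. The other Igf2 probe set, 98622_at, read 33 to 329 over all 18 samples and was not tested.

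Igf1, the ligand that also mediates growth hormone action, had 4 probe sets, which did not all behave alike. Probe set 107959_at gave 4530, 4566 and 7434 in GFP-positive cells, against 39229, 29073 and 21852 in GFP-negative cells, a difference of -2.44 ± 0.31 (adjusted p = 0.0018). Probe set 115861_at gave 704, 573 and 659 in GFP-positive cells, against 5481, 3620 and 6026 in GFP-negative cells, a difference of -2.88 ± 0.33 (adjusted p = 0.00112). In both the fractions were fully separated in every experiment.

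Probe set 95546_g_at of Igf1 read 514, 351 and 2228 in GFP-positive cells and 7865, 4731 and 2469 in GFP-negative cells. Its groups did not overlap, but Exp106 separated from the other experiments: within experiments the difference was -3.85 (Exp100), -3.64 (Exp105) and -0.15 (Exp106). The difference of -2.55 ± 0.57 was not called (adjusted p = 0.0544), and without Exp106 it was -3.79 (adjusted p = 8.02e-05). The fourth probe set, 95545_at, overlapped between fractions, at 2993, 3201 and 4472 against 4797, 3566 and 6522, and differed by -0.46 ± 0.27 (adjusted p = 0.646). It is annotated to the same gene, and what makes it differ was not tested.

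Among the binding proteins, Igfbp2 had the largest difference. Probe set 98627_at gave 1379, 1066 and 1680 in GFP-positive cells, against 11743, 10174 and 9000 in GFP-negative cells. All GFP-positive samples were several-fold below all GFP-negative ones, a difference of -2.89 ± 0.28 (adjusted p = 0.000613) and a 7.43-fold lower signal. The second probe set, 169248_r_at on array C, ran from 65 to 1642 over these 6 samples, did not separate the fractions, and differed by 0.71 ± 0.97 (adjusted p = 0.907). It was dim, at the 39.6th percentile of its array. Within experiments it went the other way from 98627_at, higher in GFP-positive cells by 0.57 (Exp100), 1.19 (Exp105) and 0.37 (Exp106).

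Igfbp3, the main carrier of IGFs in blood, read 217, 723 and 85 on 95083_at in GFP-positive cells, against 2191, 2951 and 934 in GFP-negative cells. The fractions did not overlap, although the GFP-positive values of Exp105 and Exp106 differed from each other by several-fold. The difference was -2.73 ± 0.59 (adjusted p = 0.045, and 0.000807 with the block). The call was lost in 13 of 22 alternatives (adjusted p from 0.000363 to 0.361), among them no filter on dim probe sets and the removal of any 1 sorted sample other than GFP-positive Exp105 or GFP-negative Exp106. On the second probe set, 95082_at, GFP-positive cells had 306, 362 and 678 and GFP-negative cells 2134, 1849 and 684, so Exp106 showed almost no difference. Its overall difference of -1.65 ± 0.46 was not called (adjusted p = 0.137), and without Exp106 it was -2.52 (adjusted p = 0.00297).

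Igfbp4 read 3458, 4355 and 5905 on 101571_g_at in GFP-positive cells, against 14735, 16789 and 14436 in GFP-negative cells. The groups were well apart, with a difference of -1.77 ± 0.23 (adjusted p = 0.00221). Probe set 94222_at gave 889, 683 and 3210 in GFP-positive cells and 2103, 2109 and 5023 in GFP-negative cells. Here Exp106 was higher than the other experiments in both fractions, so the groups overlapped and the difference of -1.15 ± 0.50 was not called (adjusted p = 0.423). Within each experiment the GFP-positive value was the lower one, and with experiment as a block it was called (adjusted p = 0.0132). The third probe set, 101570_at, read 13 to 221 over the 18 samples and was not tested.

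The probe set shared by Tmem119, a membrane protein of osteoblasts, and Igfbp5 read 1745, 1445 and 7161 in GFP-positive cells, against 11795, 8430 and 13302 in GFP-negative cells. The fractions did not overlap, but the GFP-positive value of Exp106 was several-fold above the other 2. The difference was -2.05 ± 0.73 (adjusted p = 0.274, and 0.0107 with the block). It cannot be assigned to either gene. Igfbp6 and Igfbp7 showed no separation: Igfbp6 gave 662, 2231 and 752 in GFP-positive cells and 924, 2402 and 653 in GFP-negative cells, a difference of -0.12 ± 0.51 (95% interval -1.23 to 0.98, adjusted p = 0.979). Igfbp7 read 252, 315 and 1118 in GFP-positive and 499, 256 and 1473 in GFP-negative cells and was too dim to be tested between sorted cells.

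**Figure D1:**
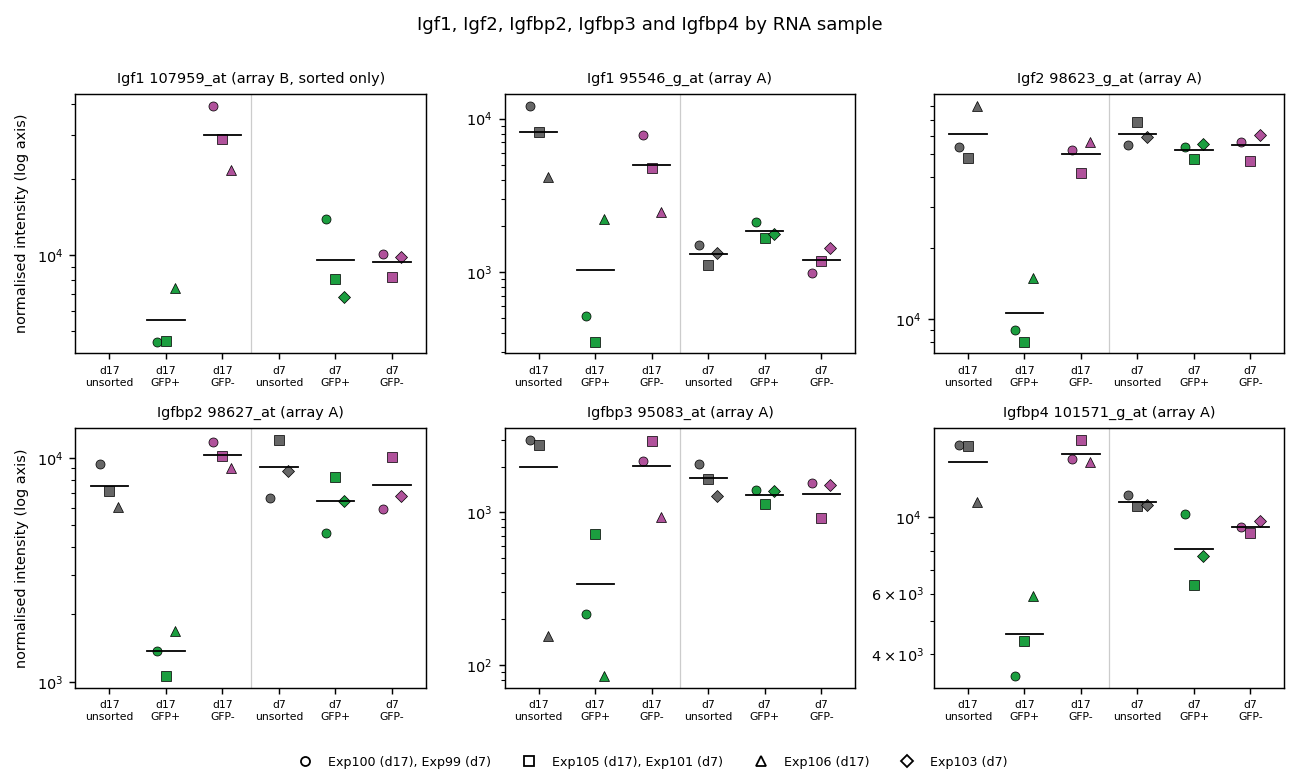
Normalised intensity (log axis) of 6 probe sets of Igf1, Igf2, Igfbp2, Igfbp3 and Igfbp4 in each RNA sample, by day and sort. Symbols stand for experiments and horizontal lines for group means (n = 3). The day 17 GFP-positive samples lie below the day 17 GFP-negative ones in each panel, and Igf1 107959_at was measured in sorted cells.

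The receptors did not separate the fractions. Igf1r 102224_at gave 1138, 2521 and 2645 in GFP-positive cells, against 2817, 2573 and 2635 in GFP-negative cells. In Exp106 and Exp105 the fractions were nearly equal, and the difference of -0.44 ± 0.44 had a 95% interval from -1.40 to 0.53 (adjusted p = 0.854). The other 3 Igf1r probe sets differed by -0.39, -0.39 and 0.03, with adjusted p from 0.916 to 0.995 and intervals reaching from -1.65 to 0.92. Of these, 106956_at differed by -1.02 and -0.76 in Exp100 and Exp105 but by 0.60 in Exp106. Without Exp106 its difference was -0.89 (adjusted p = 0.588), and 1 alternative called it, the block without Exp106 (adjusted p = 0.0317). Igf2r 95117_at gave 2237, 1999 and 2714 in GFP-positive cells and 2605, 2555 and 3316 in GFP-negative cells. It was slightly lower in each experiment, by -0.22, -0.35 and -0.29, and the difference of -0.28 ± 0.39 was not called (95% interval -1.13 to 0.56, adjusted p = 0.909). None of the 5 receptor intervals reaches as far down as the differences of Igf2 or Igfbp2 98627_at.

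**Figure D2:**
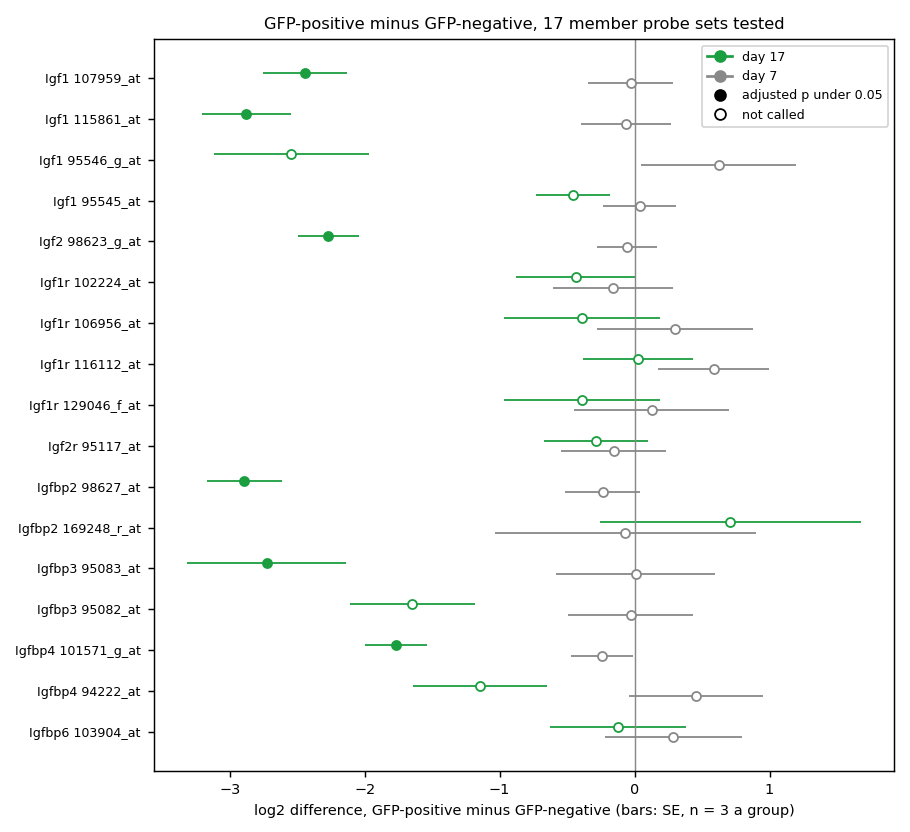
Log2 difference of GFP-positive minus GFP-negative cells for the 17 tested probe sets, day 17 above day 7 in each row, with bars for the standard error (n = 3 a group) and filled points for an adjusted p under 0.05. The 6 filled points are at day 17 and lie between -1.77 and -2.89.

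Markers of other cells also differed between the day 17 fractions. The summed normalised intensity of 18 macrophage and leukocyte genes was 24924 to 97761 in GFP-positive and 81795 to 133932 in GFP-negative cells, and all 18 had differences below 0. Such a sum adds different probe sets, so the brightest ones weigh most and it is not a measure of cell number. Of 15 tested, 1 was called lower, Coro1a, while 3 were called lower with the block, and without Exp106 11 of 14 were, among them Csf1r, Lyz2, Cd68 and C1qa. Csf1r, the receptor for macrophage colony-stimulating factor, was at 734 to 1894 in GFP-positive and 1624 to 6270 in GFP-negative cells, and Ptprc, the pan-leukocyte antigen, was below its array's median in all 6 of these samples.

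Fibroblast and mesenchymal progenitor markers summed to 124449 to 169514 in GFP-positive and 221050 to 308322 in GFP-negative cells over 10 genes, with 4 of 11 tested called lower (Sfrp2, Mgp, Aspn and Postn), 8 of 11 with the block and 5 of 10 without Exp106. Smooth muscle and pericyte markers summed to 11809 to 12465 in GFP-positive and 31190 to 47620 in GFP-negative cells over 7 genes, with 4 of 5 tested called lower (Acta2, Tagln, Cnn1 and Pdgfrb), and also 4 with the block and without Exp106. Of all 8 genes of the list, 4 had differences below 0 and the rest did not. The block also called Cspg4 of that list, higher in GFP-positive cells (3.14, adjusted p = 0.0165). In Exp106 the macrophage sum was 97761 in GFP-positive against 81795 in GFP-negative cells. There the difference between the fractions was -3.13 for Igf1 115861_at, -3.04 for Igfbp3 95083_at, -2.40 for Igfbp2 98627_at, -1.90 for Igf2, -1.55 for Igf1 107959_at, -1.28 for Igfbp4 101571_g_at, -0.64 for Igfbp4 94222_at, -0.15 for Igf1 95546_g_at and -0.01 for Igfbp3 95082_at. The part of any of these cells in the IGF results was not tested.

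The day 7 sort asked the same of pOBCol3.6GFP, and here the family showed 0 calls. The percentage of all 22099 probe sets called was 0 as well, so limma found no gene of any kind at this threshold. At an unadjusted p under 0.05, limma gave 0 of the 17 family probe sets and 328 of all. The block also gave 0 calls in the family and among all probe sets, and without Exp106, which enters the shared spread, the family had 0 calls where 0.0189% of all probe sets were called. The median over the 20 family probe sets was -0.01, against 0.00 over all.

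Igf2 98623_g_at gave 53809, 47717 and 55506 in day 7 GFP-positive cells of Exp99, Exp101 and Exp103, against 56236, 46810 and 60540 in GFP-negative cells. The ranges overlapped, and the difference of -0.05 ± 0.22 had a 95% interval from -0.54 to 0.43. Igfbp2 98627_at gave 4639, 8245 and 6448 in GFP-positive cells and 5927, 10086 and 6767 in GFP-negative cells. Each GFP-positive value was a little below its partner, by -0.35, -0.29 and -0.07, and the 95% interval of the difference ran from -0.84 to 0.37.

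Igf1 107959_at read 13906, 8027 and 6789 in GFP-positive cells and 10070, 8152 and 9828 in GFP-negative cells, which overlapped, with a 95% interval from -0.71 to 0.65. On 95546_g_at the fractions did not overlap and lay the other way from day 17, at 2103, 1677 and 1765 in GFP-positive cells against 980, 1183 and 1425 in GFP-negative cells. Its difference of 0.62 ± 0.57 was not called (adjusted p = 1). Igfbp4 101571_g_at read 10187, 6364 and 7723 in GFP-positive and 9374, 9022 and 9780 in GFP-negative cells, and its second probe set 94222_at was higher in GFP-positive cells in each experiment, by 0.41, 0.56 and 0.39, without being called (0.45 ± 0.50). Macrophage and skeletal muscle markers had lower sums in day 7 GFP-positive cells (7766 to 8518 and 10493 to 13209) than in GFP-negative cells (15747 to 40897 and 17598 to 24961). None of their genes was called, and without Exp106 Lyz2 and Ctss were called lower (adjusted p = 0.00841 each).

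Whether the fractions differed more at day 17 than at day 7 was tested as the difference of both GFP effects. It was called for 3 of 17 family probe sets, all in the negative direction, where 0.253% of all probe sets were called and 0.222% in that direction. Igf2 98623_g_at had a difference of effects of -2.22 ± 0.32 (adjusted p = 0.0242), Igfbp2 98627_at -2.66 ± 0.39 (adjusted p = 0.0274) and Igf1 115861_at -2.81 ± 0.47 (adjusted p = 0.0331). Because each day had its own transgene and medium, this compares 2 settings and not age alone. The Igf2 and Igfbp2 calls were each lost in 8 of 22 alternatives and the Igf1 call in 10, all by leaving out 1 sample, with adjusted p up to 0.0926, 0.0957 and 0.119. For Igf2 these were each day 7 sorted sample and both from Exp100. For Igfbp2 they were both samples of Exp100, Exp103 and Exp105, GFP-negative Exp99 and GFP-positive Exp101, and for Igf1 those of Igf2 together with GFP-positive Exp105 and GFP-negative Exp106.

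Igf1 107959_at (-2.41 ± 0.44, adjusted p = 0.0527) and Igfbp4 101571_g_at (-1.53 ± 0.32, adjusted p = 0.103) had differences of effects that were not called. With experiment as a block 7 family probe sets were called, against 1.14% of all. The 4 added by the block were Igf1 107959_at (adjusted p = 0.0326), Igfbp3 95083_at (0.0118), Igfbp4 101571_g_at (0.0312) and Igfbp4 94222_at (0.0333). Without Exp106 8 were called, against 1.55%. For the receptors the 95% intervals of the difference of effects were wide, from -1.64 to 1.09 for Igf1r 102224_at and from -1.33 to 1.07 for Igf2r. The other Igf1r intervals were -2.465 to 1.089 (106956_at), -1.817 to 0.701 (116112_at) and -2.244 to 1.208 (129046_f_at). Those of 106956_at and 129046_f_at reached below the Igf2 difference of effects, and 1 alternative limma fit called 106956_at (adjusted p = 0.0472).

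**Figure D3:**
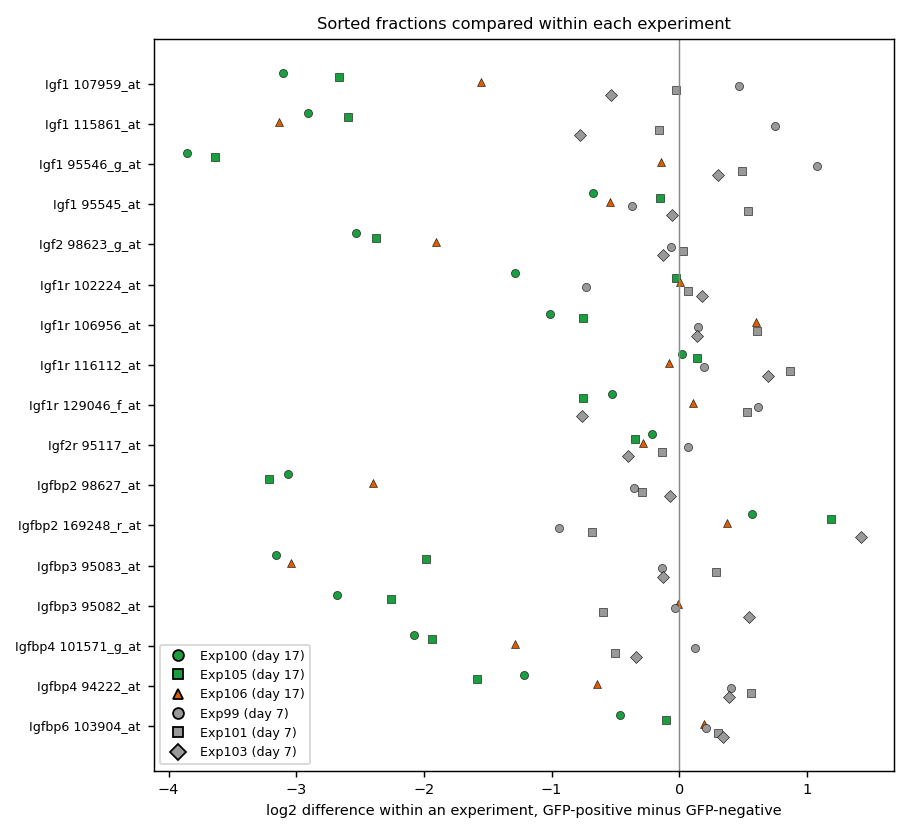
Log2 difference of GFP-positive minus GFP-negative cells within each of the 6 experiments, 1 row per tested probe set, with day 17 experiments in colour and day 7 experiments in grey. Exp106 lies near the other day 17 experiments for Igf2 (-1.90), Igfbp2 98627_at (-2.40) and Igf1 115861_at (-3.13), and near 0 for Igf1 95546_g_at (-0.15) and Igfbp3 95082_at (-0.01).

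Day 17 was set against day 7 in each kind of cell, and transgene and additions differed between the days as well. In GFP-positive cells, 4 of the 17 family probe sets were called lower and 0 higher, where 5.45% of all probe sets were called and 3.54% lower. Igf2, with 9008, 8049 and 15018 at day 17 and 53809, 47717 and 55506 at day 7, had a difference of -2.34 ± 0.22 (adjusted p = 0.000195). Igfbp2 98627_at, with 1379, 1066 and 1680 at day 17 and 4639, 8245 and 6448 at day 7, had a difference of -2.19 ± 0.28 (adjusted p = 0.00105). Both were separated with no overlap and were called in each of the 21 alternatives run.

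The other 2 calls were near the threshold. Igfbp6 103904_at read 662, 2231 and 752 in day 17 GFP-positive cells, against 4997, 3289 and 4011 at day 7, a difference of -1.93 ± 0.51 (adjusted p = 0.049). Igfbp3 95083_at read 217, 723 and 85 in day 17 GFP-positive cells, against 1413, 1137 and 1383 at day 7, a difference of -2.25 ± 0.59 (adjusted p = 0.0479). Neither pair of groups overlapped, yet the Igfbp6 call was lost in 13 of 21 alternatives (adjusted p up to 0.169) and the Igfbp3 call in 14 of 20 (up to 0.15), including the removal of any day 7 sorted sample, either Exp100 sample or GFP-positive Exp106, and for Igfbp3 also GFP-negative Exp105. Igfbp4 101571_g_at was just short of the threshold (-0.83 ± 0.23, adjusted p = 0.0605). Igf1 had lower values at day 17 on 95546_g_at, 107959_at and 115861_at (-1.26, -0.76 and -1.05) and slightly higher on 95545_at (0.42), and none of these was called. Without Exp106, 9 family probe sets were called lower, where 13.1% of all probe sets were called, and Igf1 95546_g_at (-2.07, adjusted p = 0.000454) and 107959_at (-0.98, adjusted p = 0.0306) were among them.

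GFP-negative cells showed the opposite direction for Igf1. Of 17 family probe sets, 2 were called higher at day 17 and 0 lower, where 0.538% of all probe sets were called and 0.272% higher, and both belonged to Igf1. Probe set 107959_at read 39229, 29073 and 21852 at day 17 against 10070, 8152 and 9828 at day 7 (1.65 ± 0.31, adjusted p = 0.0427). Probe set 115861_at read 5481, 3620 and 6026 at day 17 against 1290, 1162 and 1924 at day 7 (1.77 ± 0.33, adjusted p = 0.041). Across the 21 alternatives each call was lost in 14, where the highest adjusted p was 0.17 for 107959_at and 0.175 for 115861_at. These included the removal of any 1 sample of Exp100, Exp101 or Exp103, of GFP-negative Exp99, of either Exp105 sample and, for 115861_at, of GFP-negative Exp106. The other Igf1 probe sets differed by 0.91 ± 0.27 and 1.91 ± 0.57, with no overlap between days, and were not called (adjusted p = 0.211 and 0.213). Without Exp106, 95546_g_at was called as well (2.35, adjusted p = 0.00108), and 3 family probe sets were called, against 2.84% of all.

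Igf2 in GFP-negative cells differed by -0.13 ± 0.22 between the days (adjusted p = 0.867), Igfbp2 98627_at by 0.47 ± 0.28 (adjusted p = 0.573) and Igfbp4 101571_g_at by 0.70 ± 0.23 (adjusted p = 0.259). Igfbp6 read 924, 2402 and 653 at day 17 against 4309, 2658 and 3148 at day 7. It was lower at day 17 with no overlap, by -1.51 ± 0.51, but was not called (adjusted p = 0.271).

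**Figure D4:**
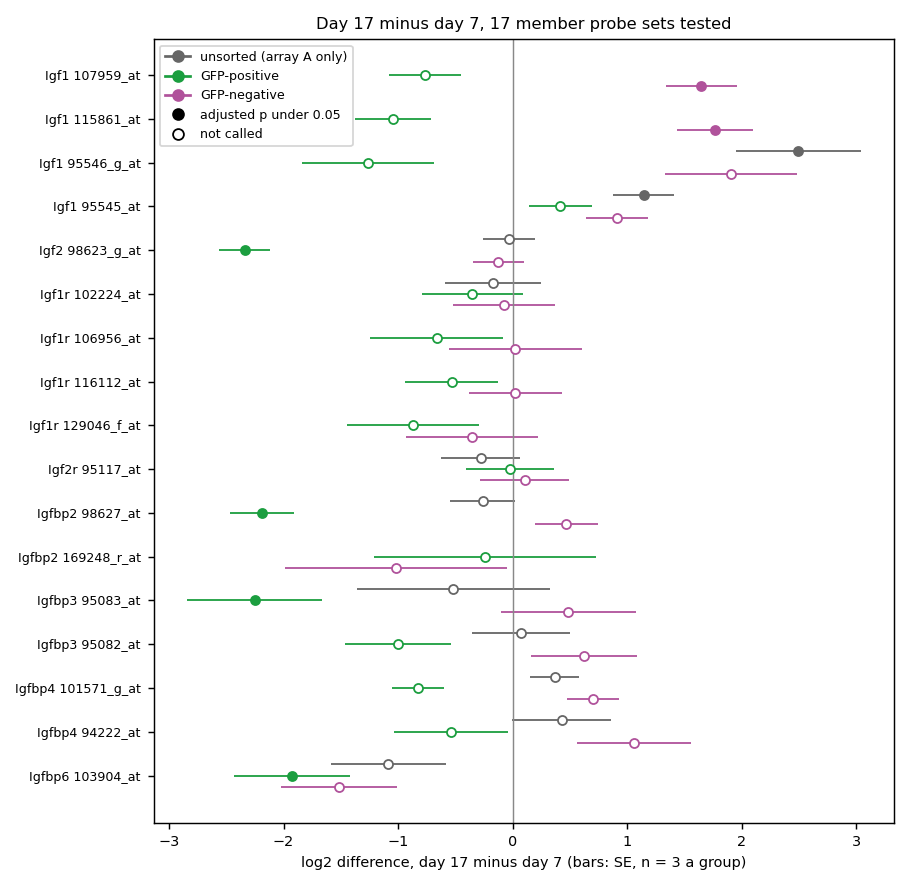
Log2 difference of day 17 minus day 7 for the 17 tested probe sets in unsorted (array A), GFP-positive and GFP-negative cells, with bars for the standard error (n = 3 a group) and filled points for an adjusted p under 0.05. Igf2 and Igfbp2 98627_at are low in GFP-positive cells (-2.34 and -2.19) and near 0 in the other 2, and Igf1 points lie above 0 in unsorted and GFP-negative cells.

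In unsorted cultures 2 of 12 family probe sets were called higher at day 17 and 0 lower, where 5.71% of all 7455 probe sets of array A were called and 3.04% higher. Both again were Igf1. Probe set 95546_g_at read 12127, 8245 and 4182 at day 17 against 1505, 1102 and 1332 at day 7 (2.49 ± 0.55, adjusted p = 0.015), and 95545_at 4664, 4463 and 7322 at day 17 against 2815, 2237 and 2192 at day 7 (1.14 ± 0.27, adjusted p = 0.021). No day 17 value fell into the day 7 range. The calls were lost in 3 and 5 of 27 alternatives (adjusted p up to 0.0643 and 0.0976), both without unsorted Exp101 or Exp103, the first without unsorted Exp100 and the second without unsorted Exp106. With all Exp106 samples left out both were made, where 13.2% of all probe sets were called.

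Igf2 was at 53809, 48170 and 80196 in unsorted day 17 cultures against 54946, 68213 and 59360 at day 7, a difference of -0.03 ± 0.23 (adjusted p = 0.937). Igfbp2 98627_at differed by -0.26 ± 0.28 (adjusted p = 0.574), and Igfbp6 by -1.09 ± 0.51 with overlapping groups (adjusted p = 0.224). Igfbp3 95083_at read 2990, 2777 and 156 in day 17 unsorted cultures, so Exp106 alone put it below the day 7 values of 2091, 1652 and 1280. Its difference was -0.52 with Exp106 and 0.81 without it, and neither was called (adjusted p = 0.715 and 0.176).

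In unsorted and GFP-negative cells, macrophage markers differed in the same direction as Igf1 between day 7 and day 17. Their sum over 18 genes was 187369 to 243950 in day 17 unsorted cultures against 21790 to 46335 at day 7, with 12 of 17 tested genes called higher. In GFP-negative cells it was 81795 to 133932 at day 17 against 15747 to 40897 at day 7, with 0 of 15 called, and 8 of 14 called higher without Exp106. In GFP-positive cells, where no Igf1 probe set was called, it was 24924 to 97761 at day 17 against 7766 to 8518 at day 7, with 7 of 15 called higher. There Igf1 went the other way on 95546_g_at, 107959_at and 115861_at (-1.26, -0.76 and -1.05) and the same way on 95545_at (0.42). Smooth muscle markers had sums of 11809 to 12465 in day 17 against 53008 to 59226 in day 7 GFP-positive cells, with 4 of 5 called lower, the direction of Igf2 and Igfbp2. Of all 8 genes of that list, 6 had differences below 0. Fibroblast markers had 3 of 11 called higher in GFP-negative and 3 of 11 called lower in GFP-positive cells. Their part in the IGF results was not tested.

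Unsorted RNA was also compared with the mean of the sorted fractions of the same day. That mean gives the log2 values of both fractions equal weight, whatever their share in the culture. Where the fractions differ several-fold it lies below an equal mix of both, so a higher unsorted value is not independent of the fraction difference. For Igf2 at day 17 the mean log2 values were 13.333 in GFP-positive, 15.602 in GFP-negative and 15.855 in unsorted cells. At day 17, 3 of 12 family probe sets were called higher in unsorted cells and 0 lower, where 1.6% of all were called and 1.49% higher. Igf2 98623_g_at differed by 1.39 ± 0.20 (adjusted p = 0.00451), Igf1 95546_g_at by 2.00 ± 0.47 (adjusted p = 0.0467) and Igfbp4 101571_g_at by 0.78 ± 0.19 (adjusted p = 0.0482). Unsorted Igfbp4 read 16216, 16097 and 11104, against 3458, 4355 and 5905 in GFP-positive and 14735, 16789 and 14436 in GFP-negative cells. For all 3 probe sets the unsorted values lay above every GFP-positive value and within or above the GFP-negative range, except Igfbp4 in Exp106, which lay between the fractions.

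The Igf2 call was lost in 1 of 29 alternatives, the Igf1 and Igfbp4 calls in 18 each (adjusted p up to 0.286 and 0.259). Leaving out most single samples was enough, the exceptions for both being unsorted Exp106, GFP-positive Exp106 and GFP-negative Exp101, with GFP-negative Exp100 for Igf1 and GFP-positive Exp101 for Igfbp4. With experiment as a block Igfbp2 98627_at was called too (0.98 on the log2 scale, adjusted p = 0.00309, and 0.0576 without the block), where 12.3% of all probe sets were called. Without Exp106 6 were called, against 9.5% of all. The probe set shared by Tmem119 and Igfbp5 was called with the block as well (1.64 ± 0.56, adjusted p = 0.0168, and 0.16 without it).

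In this comparison macrophage markers had the same direction, with sums of 187369 to 243950 in unsorted, 24924 to 97761 in GFP-positive and 81795 to 133932 in GFP-negative cells and a median difference of 1.84. Of 17 tested, 6 were called higher, among them Csf1r, Cd68 and Lcp1, and 14 with the block and 12 of 16 without Exp106. Of 10 fibroblast markers 2 were called higher, Sfrp2 and Mgp. Their part in the IGF results was not tested. At day 7, 0 of 12 family probe sets and 0% of all were called by limma, and at an unadjusted p under 0.05 there were 0 and 59.

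Ordered over the 6 groups, Igf2 was high in 5 and low in 1. Its means were 60840 in day 7 unsorted, 60725 in day 17 unsorted, 54529 in day 7 GFP-negative, 52344 in day 7 GFP-positive and 50098 in day 17 GFP-negative cells, each overlapping the next in the order. Day 17 GFP-positive cells were below all of these at 10692 ± 3777 (SD, n = 3). Igfbp2 98627_at had the same shape, with means from 6444 to 10306 in 5 overlapping neighbours of the order and 1375 ± 307 in day 17 GFP-positive cells.

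Igfbp4 101571_g_at spread into steps. Day 17 GFP-negative (15320), day 17 unsorted (14472) and day 7 unsorted (11072) cells overlapped as neighbours, day 7 GFP-negative (9392) and day 7 GFP-positive cells (8091) followed with no overlap to the step above, and day 17 GFP-positive cells (4573) were lowest with no overlap. Igf1 95546_g_at was highest in day 17 unsorted (8185) and day 17 GFP-negative cells (5022), which overlapped and stood clear of the 3 day 7 groups (1848, 1313 and 1196). Day 17 GFP-positive cells averaged 1031 but spanned 351 to 2228, which overlapped its neighbour. Igfbp6 ordered by day, with means of 4099, 3371 and 3212 in the day 7 groups above 1554, 1326 and 1215 in the day 17 groups, and each neighbour overlapped the next.

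**Figure D5:**
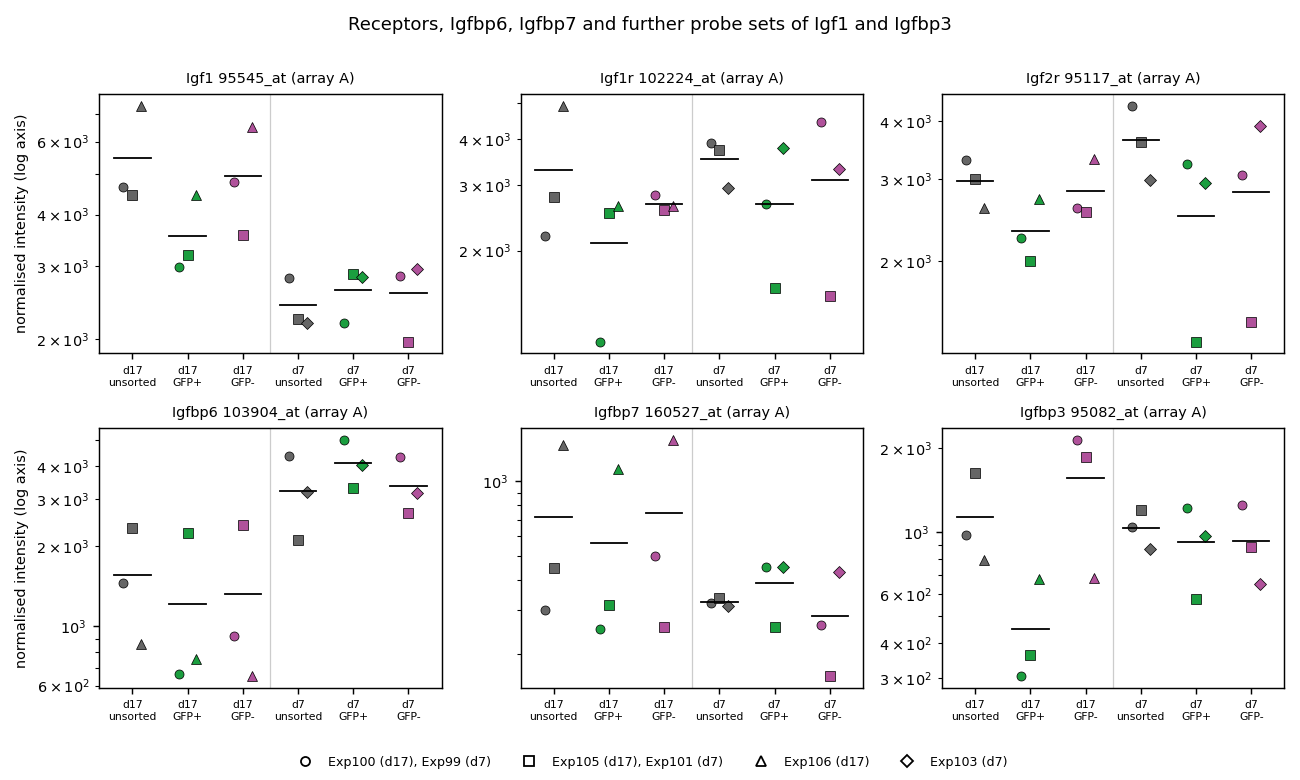
Normalised intensity (log axis) of the receptors, Igfbp6, Igfbp7 and the second probe sets of Igf1 and Igfbp3 in each RNA sample of array A, with symbols for experiments and lines for group means (n = 3). The fractions overlap within a day for Igf1r, Igf2r, Igfbp6 and Igfbp7, and Exp106 is the highest day 17 experiment for Igfbp7 (1118 to 1473).

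The receptors and Igfbp7 had no step in their order. Igf1r 102224_at means ran from 3530 in day 7 unsorted to 2102 in day 17 GFP-positive cells and Igf2r means from 3634 in day 7 unsorted to 2317 in day 17 GFP-positive cells, with every neighbour overlapping. Igfbp7 was raised in Exp106, at 1410 in unsorted, 1118 in GFP-positive and 1473 in the GFP-negative cells, while the other 15 samples lay between 163 and 499. In the array A fit with unsorted cells, Igfbp7 passed the brightness filter only with the Exp106 samples included, and without them it was not tested. There it differed by 0.78 ± 0.65 between unsorted cultures at day 17 and day 7 (adjusted p = 0.474). Its unsorted values were 301 (Exp100), 445 (Exp105) and 1410 (Exp106) at day 17. At day 7 they were 321 (Exp99), 337 (Exp101) and 314 (Exp103).

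The rest of the pathway was taken as 47 further genes of IGF signalling, binding protein cleavage, growth hormone action and imprinting, of which 40 had a probe set of their own and 27 were tested in sorted cells. Between the day 17 fractions 1 of 27 was called, Shc1, an adaptor that links growth factor receptors to Ras (-0.88 ± 0.18, adjusted p = 0.0379), where 1.48% of all probe sets were called. The list's median was -0.18, against 0.02 over all probe sets. With the block, Cdkn1c (a cell cycle inhibitor) and Plagl1 (a zinc finger factor), both imprinted like Igf2, and Grb14 (an adaptor that dampens insulin signalling) were called lower as well, with adjusted p of 0.000479, 0.018 and 0.0105. The block called 5.02% of all probe sets. Without the block the differences of Cdkn1c, Plagl1 and Grb14, of -1.87, -2.11 and -1.13, were not called. Without Exp106, 4 of 27 were called lower, namely Shc1, Plagl1 (adjusted p = 0.00479), Grb14 (0.0367) and the lysosomal protease Ctsd (0.0201). In the same fit 1 was called higher, the growth hormone receptor kinase Jak2 (0.0192, with a difference of 1.04 and an adjusted p of 0.152 over all samples). Of all probe sets, 4.98% were called without Exp106.

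Between days, GFP-positive cells had 1 higher and 2 lower of 27, where 5.45% of all probe sets were called and 3.54% lower. Without Exp106 there were 2 higher and 4 lower, against 13.1%. Stat5a, a transcription factor of growth hormone signalling, differed by 0.77 ± 0.19 (adjusted p = 0.0411). Igf2bp1, which binds Igf2 mRNA, differed by -2.13 ± 0.42 (adjusted p = 0.0123) and Shc1 by -0.86 (adjusted p = 0.0191). Ctsd, which can cleave binding proteins, was the 1 of 23 called between unsorted and sorted cells at day 17 (1.32 ± 0.27, adjusted p = 0.0252), where 1.6% of all probe sets were called. The list had 0 calls in the other comparisons, namely both day 7 comparisons, the difference of the GFP effects, and day 17 against day 7 in GFP-negative and unsorted cells, with medians from -0.12 to 0.12. With the block, the difference of the GFP effects was called for Cdkn1c (adjusted p = 0.0134) and Grb14 (0.0468), where 1.14% of all probe sets were.

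Likeness of pattern was measured by Pearson's r of normalised log2 values over the 18 samples of array A, among 5605 candidate probe sets of other genes. Nearest to Igf2 were F2r (a thrombin receptor, r = 0.94), Gas1 (a growth arrest protein, 0.94) and Celf2 (an RNA-binding protein, 0.93). Nearest to Igfbp2 were Psmb8 (an immunoproteasome subunit, 0.94), Retreg1 (0.93) and H2-DMa (0.93), and nearest to Igfbp4 were Ahr (0.92), Fst (0.92) and Smoc2 (0.92). For Igfbp3 they were Fzd1 (0.95), Vcl (0.92) and Cd81 (0.92), and for Igfbp6 Ctsl (0.93), Anxa3 (0.93) and Uck2 (0.91). Within the family, Igf2 and Igfbp2 had the highest correlation (r = 0.90), followed by Igfbp2 with Igfbp4 (0.81) and Igf2 with Igfbp4 (0.77), and the lowest was Igf1 95545_at with Igfbp6 (-0.71). For Igf1 95545_at the nearest were Paqr7 (0.95), Lbp (0.93) and Tpm3 (0.92), for Igf1r Lpp (0.85), Bgn (0.84) and Itgav (0.83), for Igf2r Notch2 (0.89), Myadm (0.89) and Nucb1 (0.87), and for Igfbp7 Pcid2 (0.94), Aopep (0.94) and Nomo1 (0.94). These values are descriptions over samples that share 6 experiments and 6 groups. Igfbp7 was raised in Exp106, and r was not computed without that experiment.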

How the data were processed

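The deposited values are linear microarray intensities, with 1 summary value for each probe set of an array, from 44 arrays of 3 types (18 A, 13 B and 13 C). The labels and headers do not say how the authors summarised and scaled the probes, and the lowest deposited intensity is 10. Array A was hybridised with all 18 RNA samples, and arrays B and C with the 12 sorted samples and 1 unsorted one, which entered no fit. Probe sets were named from the platform annotation, with symbols updated through RefSeq: 29131 had 1 gene, 724 several and 6846 none.

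The intensities were offset by 32, log2 transformed and quantile normalized within each array type. Probe sets above their own array's median on 3 or more arrays of a fit were tested with limma 3.58.1 in R 4.3.3 (statmod 1.5.0), with an intensity trend and Benjamini-Hochberg adjustment over all probe sets of a comparison. Sorted samples entered 1 fit over the 3 array types (22099 probe sets) and comparisons with unsorted cells a fit on array A (7455). The members, gene lists and tests were chosen with earlier results of these data known. Every member probe set is reported, called genes of the pathway list are named, marker lists are given by counts and examples, and the 3 genes most like a member's leading array A probe set are named. Marker sums use array A and are weighted to the brightest probe sets of a list.

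Samples of 1 experiment share its name in the titles, and their deviations from group means correlated in each experiment on array A (r from 0.11 to 0.59), so experiment was also fitted as a block. It can be fitted for comparisons within a day. Nothing in the labels makes the experiments separate animals, so the p-values cover the spread of these samples alone, which may be technical. The number of arrays limits the precision. The fits were tested on simulated data with known changes. Promoter windows came from RefSeq. Alternatives were a pseudocount of 8 or 128, a 75th percentile filter or none, the intensities as deposited, no trend, no Exp106, a random or fixed block, only the groups compared, and leaving out each RNA sample in turn.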

Additional observations from a re-analysis of the deposited data

Results flagged for a closer look

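For 3 probe sets the effect of GFP differed between the days in the test of that difference by limma, given as the day 17 effect minus the day 7 effect on the log2 scale: Igf2 98623_g_at at -2.22, Igfbp2 98627_at at -2.66 and Igf1 115861_at at -2.81. Within experiments the fractions differed in Igf2 by -2.53, -2.37 and -1.90 at day 17, whereas the day 7 values were -0.06, 0.03 and -0.12. For Igf1 115861_at the day 17 experiments lay between -3.13 and -2.59 and the day 7 experiments between -0.78 and 0.75. Transgene and medium additions differed between the days as well and cannot be told apart from time.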

How the results depend on the processing

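The counts of called family probe sets moved by over 1.5 times under the following settings. The ranges without single samples also hold counts that moved by less. The cause was not tested unless fewer samples or probe sets enter. For the day 17 fractions (6 calls) the count was 10 with the replicate block and without Exp106, and 2 with only the groups compared. Without single samples it was 5 to 8, which is within 1.5 times. For the difference of the GFP effects (3 calls) it was 8 without Exp106, 6 with a random block, 7 with the replicate block, 10 with the replicate block and without Exp106, and 0 to 6 without single samples. Day 17 against day 7 in GFP-positive cells (4 calls) gave 2 with a pseudocount of 8, no filter, no trend or only the groups compared, 9 without Exp106, and 2 to 4 without single samples. In GFP-negative cells (2 calls) it gave 0 with no filter, intensities as deposited, a random block or only the groups compared, 1 with no trend, and 0 to 3 without single samples. In unsorted cells (2 calls) it gave 1 with intensities as deposited or only the groups compared, and 0 to 2 without single samples, with 0 without unsorted Exp101 or Exp103. Unsorted against sorted cells at day 17 (3 calls) gave 1 with no filter or no trend, 6 without Exp106 with or without the replicate block, 0 with only the groups compared, and 1 to 4 without single samples. The share of all probe sets called moved as well. It is given for the replicate block alone and for leaving out Exp106 alone. The counts under the other settings stand without such a share. For the day 17 fractions it was 1.48% in the main fit, 5.02% with the block and 4.98% without Exp106. In the same order it was 0.253%, 1.14% and 1.55% for the difference of the GFP effects and 1.6%, 12.3% and 9.5% for unsorted against sorted cells. Between days it went without Exp106 from 5.45% to 13.1% in GFP-positive, 0.538% to 2.84% in GFP-negative and 5.71% to 13.2% in unsorted cells.

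Both day 7 comparisons had 0 calls under each alternative run. The 20 single results that were called had 469 values under the alternatives, of which 327 kept the call, 142 lost it and none changed sign. The 101 that were not called had 2376, of which 65 gained a call and 6, not called either way, changed sign by over 1 standard error. Igfbp2 98627_at and Igf1 115861_at kept their day 17 fraction call in all 23 alternatives, while only the groups compared took the Igf2 call to an adjusted p of 0.0535 by limma, Igf1 107959_at to 0.0505 and Igfbp4 101571_g_at to 0.0643. With the pairing of samples by experiment, family calls that changed under the replicate block are given beside their results.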

Other observations

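The unsorted sample of Exp106 was also hybridised to arrays B and C, with no replicate, so its deposited intensities are given beside those of the sorted fractions of the same experiment. Igf1 107959_at read 27164 in unsorted, 8217 in GFP-positive and 27967 in the GFP-negative cells, and Igf1 115861_at 4961, 778 and 6005 in the same order. In both the unsorted culture was close to the GFP-negative fraction. The Igf1r probe sets 106956_at, 116112_at and 129046_f_at read 3283, 2113 and 8294 in unsorted, 2680, 877 and 5339 in GFP-positive, and 1647, 864 and 4462 in the GFP-negative cells, so unsorted cells were the highest in each. These are single arrays with no test.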
